A study of Mus musculus with 6 samples.

Results

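The 8 genes described here encode the apolipoproteins Apoa1, Apoa4, Apob, Apoc2 and Apoc3 and 3 proteins of chylomicron assembly, Mttp, Sar1b and Apobec1. They were taken by gene symbol from the 12395 genes whose label could be restored in a table of 22700 rows, and all 8 were found and passed the filter on low expression. The table holds RNA-seq values for mucosa from the middle small intestine of C57BL/6 mice, 3 of them alk-SMase knockout (KO; K79S, K82S, K86S) and 3 wild type (WT; W83S, W89S, W90S). Exon 2 of Enpp7, which encodes alk-SMase, the intestinal enzyme that splits sphingomyelin, had been removed in the KO mice with the Cre-loxP system, and all mice were given standard pellets. The Cre driver and the age and sex of the mice are not given in the sources used here. Each library came from 1 mouse, and each value is an FPKM, the number of fragments scaled to transcript length and to the mapped fragments of the library, so that levels can be set side by side between genes.

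After a meal, enterocytes rebuild triglyceride and pack it with cholesterol into chylomicrons. Apob is the single large protein on which each particle is built, and the microsomal triglyceride transfer protein, encoded by Mttp, loads it with lipid in the endoplasmic reticulum. Sar1b, a small GTPase of the COPII coat, carries the prechylomicron on to the Golgi apparatus. Apoa1, Apoa4, Apoc2 and Apoc3 sit on the particle surface, where Apoc2 activates lipoprotein lipase and Apoc3 inhibits it. Apobec1 is a cytidine deaminase that turns a glutamine codon of the Apob transcript into a stop codon, which yields the short protein apoB-48 of intestinal chylomicrons.

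The site that joins Apobec1 to Apob is shown because their ratio was the only 1 of 7 compared here without overlap between KO and WT. That difference did not pass (exact permutation test, p = 0.1, the smallest possible here, adjusted p = 0.35). Of single rows, 5.9% had all KO above all WT and 11.3% all KO below. In the GENCODE M21 transcript Apob-202 the edited cytidine is the first base of codon 2179 of 4505, so that 48.3% of the codons lie before it. It lies at position 8008054 of chromosome 12 in GRCm38, on the plus strand, in exon 26 of 29 (8005736 to 8013202), which is coding there. The 30 bases at chr12:8008042-8008071 are given 5′ to 3′, with the edited C and the 11 bases of the mooring sequence that guides the editing complex in capitals.
Apob editing site: acatacgcgataCaattTGATCAGTATAtt
Between the edited codon's first base and the mooring sequence lie 4 bases. FPKM counts edited and unedited transcripts together, so the share of edited Apob was not measured.

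Several features of the libraries bear on the values that follow. Values of single mice are listed in the order K79S, K82S, K86S for KO and W83S, W89S, W90S for WT. Enpp7 had 604.5, 128.9 and 669.7 FPKM in the KO mice and 405.6, 667.1 and 495.0 FPKM in the WT mice. These values cover the whole gene and do not test the loss of exon 2. The 12 enterocyte markers summed to between 12998 and 21225 FPKM in every library, so the defining markers of the labelled tissue were present. Stomach markers, of which 7 of 11 had a restored label, summed to 41019 FPKM in W83S, or 8.48% of its total. Elsewhere they summed to at most 5.72 FPKM. The 3 of 12 pancreatic acinar markers with a restored label summed to 12505 FPKM in W83S and to at most 82.5 FPKM elsewhere. In W83S this sum was nearly all Clps (10194 FPKM) and Pla2g1b (2308.8 FPKM), while Ctrb1 had 2.11 FPKM. Whether W83S held acinar cells was not tested. The Y-linked gene Eif2s3y was listed at 0 in K79S and had at least 5.69 FPKM in the other 5 libraries, and the labels give no sex. Without W83S, 0 of the 8 genes passed, as did 0 of all 12894 rows tested. Without K79S, 0 of the 8 genes passed, as did 0 of all 12928 rows tested. These 2 fits thus could not set the 8 genes apart from other rows.

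The ratio of 10 proximal to 6 of 9 distal small intestine markers was taken by summed FPKM. Fabp6, Slc10a2 and Fgf15 of the distal list had no restored label. The ratio was 3.26, 1.07 and 11.1 in K79S, K82S and K86S and 11, 2.40 and 11.2 in W83S, W89S and W90S. By this ratio K82S, W89S and K79S were low and W83S, K86S and W90S high. Of the mice, 2 of 3 KO but 1 of 3 WT had low ratios, so the ratio was not balanced between the genotypes. Fabp1 and Rbp2 made up most of the proximal sum. Both were also on the list of enterocyte markers, so the ratio was not independent of the level of enterocyte genes. Fabp1 and Rbp2 kept this split, as did Slc2a2, Onecut2, Slc51a, Slc51b, Ceacam20 and Mep1a. Lct (455.8 FPKM in K79S, 242.7 in W83S), Cubn (29.8 in K82S, 45.0 in K86S), Ada, Gata4, Clec2h, Cybrd1, Slc40a1 and Pdx1 did not. Whether the sampled region differed was not tested.

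Together the 8 genes held 3.25% (K82S) to 6.30% (K86S) of the summed FPKM of a library, with 3.69% to 5.12% in the WT libraries. Apoa1 was the most abundant row of the whole table by mean FPKM and alone made up 2.40% to 3.64% of a library. Apoa4 stood at rank 4 with 0.605% to 2.48%. The mean level over the 6 libraries then dropped from 6030 FPKM for Apoa4 to 615 FPKM for Apoc2, 529 FPKM for Apoc3, 365 FPKM for Mttp, 225 FPKM for Apob, 185 FPKM for Sar1b and 21.4 FPKM for Apobec1.

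Apoa1 lay above Apoa4, and Apoa4 above Apoc2, in 6 of 6 libraries with no overlap of their ranges, and Sar1b stood as clearly above Apobec1. Mttp exceeded Apob in 6 of 6 libraries, by 1.15 to 2.37 times, and Apoc3 exceeded Mttp in 6 of 6, although the ranges of these genes overlapped across libraries. Apoc2 and Apoc3 changed places, with Apoc2 higher in 4 of 6 libraries, and so did Apob and Sar1b, with Apob higher in 4 of 6. The order within these pairs is thus not larger than the spread between mice.

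**Figure D1:**
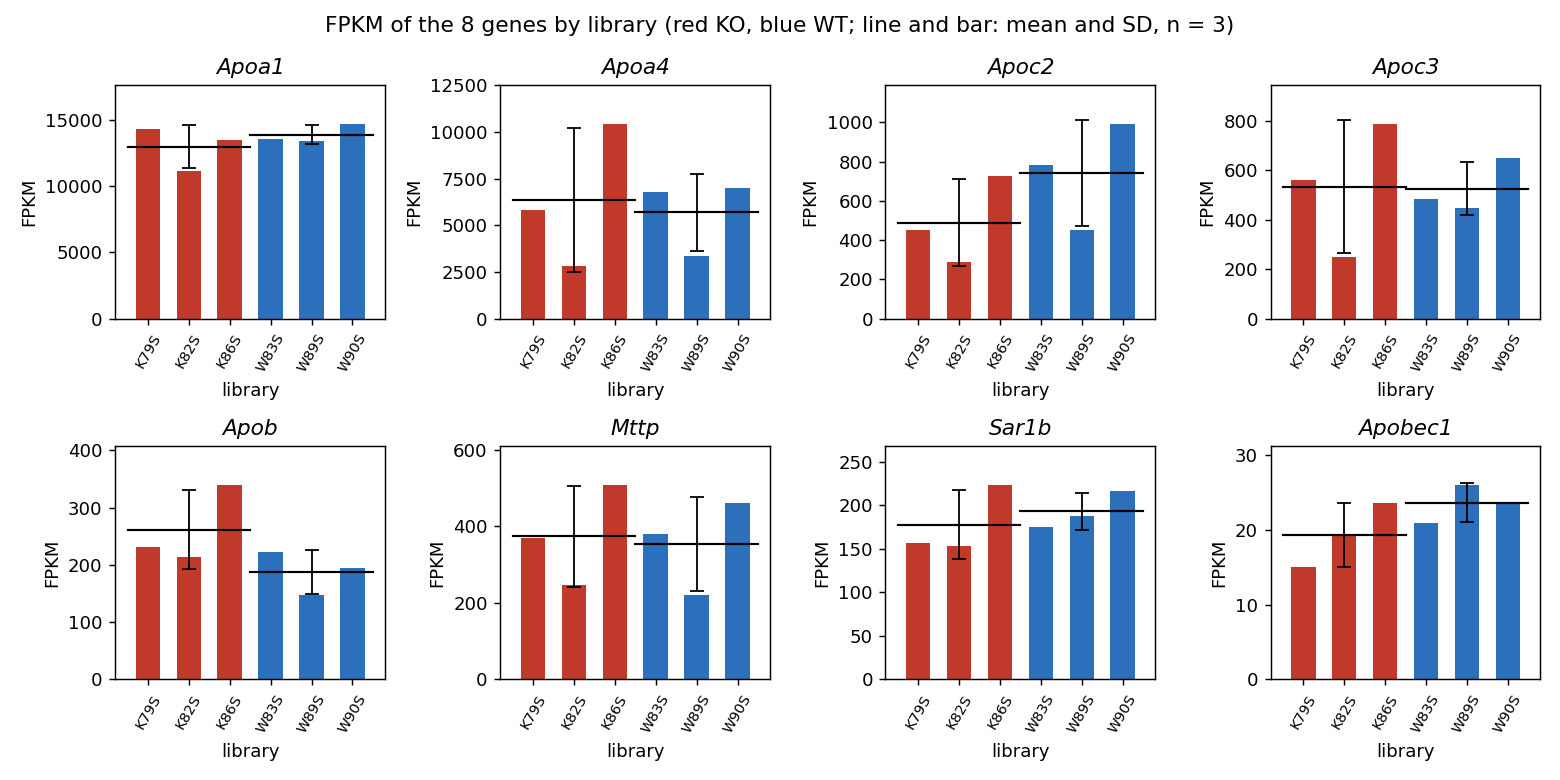
FPKM of each of the 8 genes (vertical axis, from 0, with its own scale in each panel) in the 3 KO libraries (red bars) and 3 WT libraries (blue bars), with the mean of each genotype as a line and its SD as an error bar. The bars of the genotypes overlap for all 8 genes, and K82S is the lowest library for Apoa1, Apoa4, Apoc2, Apoc3 and Sar1b.

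None of the 8 genes passed the thresholds between KO and WT, set at 0.05 for the adjusted p and at a fold above 1.5 or below 2/3, in a limma fit of log2(FPKM + 1) over all 13089 rows tested. In that fit 1 row, or 0.00764%, passed. None of the 8 had an unadjusted p under 0.05 either, against 1638 of all rows, and the lowest exact two-sided permutation p among them was 0.2, where 3 libraries against 3 cannot go below 0.1. The 95% intervals of the difference were wide, and for Apoa4 the interval ran from -1.24 to 1.31 on the log2 scale. A difference of 1 on the log2 scale thus lay within the interval in both directions for Apoa4, downward for Apoc2 and Apoc3, and upward for Apob. For none of the 8 genes did all KO libraries lie on one side of all WT libraries, whereas 5.9% of all rows had all KO above and 11.3% had all KO below. The median log2 fold change was -0.11 over the 8 genes and -0.06 over all rows.

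The reads behind each value were not derived from FPKM, and the error of each value here is the spread between mice. Without K82S, 1184 of 12764 rows, or 9.28%, passed the thresholds, and 0 of the 8 genes did.

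**Figure D2:**
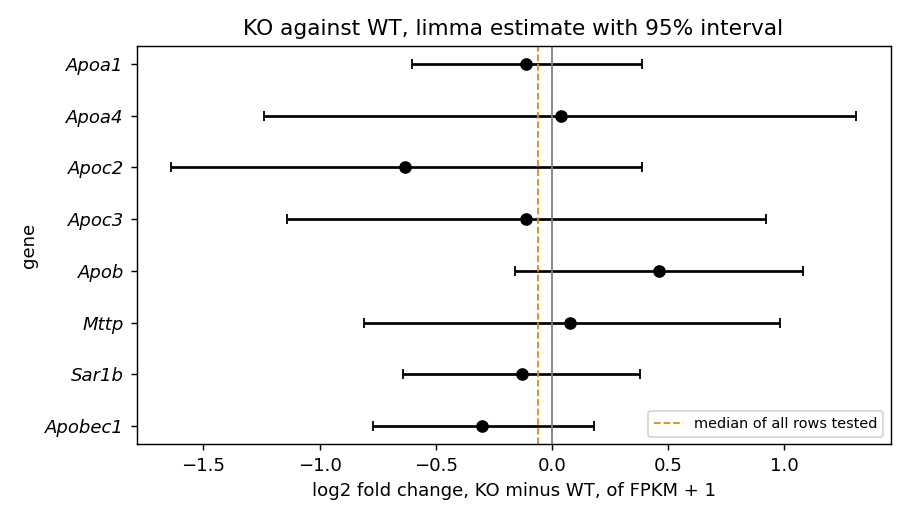
Difference between KO and WT (horizontal axis, log2 fold change of FPKM + 1, KO minus WT) for the 8 genes, as the limma estimate (point) with its 95% interval (bar), beside the median of all rows tested (dashed line). All 8 intervals include 0, from Apoc2 at -0.63 to Apob at 0.46.

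Of the surface apolipoproteins, 3 are neighbours on chromosome 9, within 14880 bp of GRCm38. Apoa1 (46228580 to 46230466, plus strand) is followed after 2466 bp by Apoc3 (46232933 to 46235636, minus strand) and after a further 5059 bp by Apoa4 (46240696 to 46243459, plus strand). Their levels and the spread of these levels differed widely.

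Apoa1, the structural protein of HDL and a component of nascent chylomicrons, had 14303, 11160.5 and 13488.5 FPKM in the KO mice and 13552, 13448 and 14702 FPKM in the WT mice. It was the steadiest of the 8, with a highest level only 1.32 times its lowest. The means were 12984 ± 1631 in KO against 13901 ± 696 FPKM in WT (SD, n = 3), and its log2 difference of -0.11 (limma, SE 0.21, adjusted p = 0.852) turned to 0.08 when every library was rescaled to the same sum.

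Apoa4 is induced by fat absorption and marks the absorbing villus. It had 5806.6, 2819.5 and 10434 FPKM in the KO mice and 6786, 3339.5 and 6995.5 FPKM in the WT mice. The highest and the lowest library were thus both KO, 3.70 times apart, the widest range among the 8 genes. The means of 6354 ± 3837 in KO against 5707 ± 2053 FPKM in WT (SD, n = 3) gave a log2 fold change of 0.04 (limma, SE 0.53, adjusted p = 0.981), and this turned to -0.42 without K86S and to -0.31 without W89S.

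Apoc3, the inhibitor of lipoprotein lipase, followed the same libraries. Its FPKM was 560.5, 250.8 and 786.7 in the KO mice and 483.2, 445.4 and 647.2 in the WT mice. K82S was again lowest and K86S highest. The means were 532.7 ± 269 in KO against 525.3 ± 107.2 FPKM in WT (SD, n = 3). Its log2 difference of -0.11 (limma, SE 0.43, adjusted p = 0.93) turned to 0.36 without K82S, to 0.05 without W90S and to 0.07 after rescaling to the same sum.

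Apoc2, the activator of lipoprotein lipase, lies apart from these on the minus strand of chromosome 7 (19671579 to 19677941), and had the lowest estimate of the 8. It had 453.5, 288.6 and 724.3 FPKM in the KO mice and 781, 453.9 and 991.3 FPKM in the WT mice. W83S and W90S lay above every KO library, while W89S lay level with K79S. The means were 488.8 ± 220 in KO against 742.1 ± 270.8 FPKM in WT (SD, n = 3), with a log2 fold change of -0.63 (limma, SE 0.42, 95% interval -1.64 to 0.39, adjusted p = 0.537). Its sign was kept under all 14 alternatives, between -0.96 without K86S and -0.23 with the regional marker ratio as a covariate. It was -0.95 without W89S, -0.38 without W90S and -0.30 without K82S.

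Apob, the scaffold of the particle, lies on the plus strand of chromosome 12 (7977648 to 8016835). It had 230.5, 213.7 and 340.2 FPKM in the KO mice and 222.7, 146.7 and 194.9 FPKM in the WT mice. Only W83S reached into the KO range, where it passed K82S. The means of 261.5 ± 68.7 in KO against 188.1 ± 38.4 FPKM in WT (SD, n = 3) gave the highest estimate of the 8, a log2 fold change of 0.46 (limma, SE 0.26, 95% interval -0.16 to 1.08, adjusted p = 0.458). Its sign was kept under all 14 alternatives, between 0.26 without K86S and 0.67 with the same covariate (0.30 without W89S), and its adjusted p lay between 0.142 and 0.76.

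Mttp, which lipidates Apob, lies on the minus strand of chromosome 3 (138089854 to 138144968). It had 368.8, 245.9 and 509.4 FPKM in the KO mice and 380.9, 220.8 and 462.1 FPKM in the WT mice. Each genotype thus had 1 low library, K82S or W89S, and the groups overlapped almost fully. The means were 374.7 ± 131.8 in KO against 354.6 ± 122.8 FPKM in WT (SD, n = 3), and its log2 difference of 0.08 (limma, SE 0.37, adjusted p = 0.938) turned to -0.17 without K86S and to -0.22 without W89S.

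Sar1b, the GTPase of prechylomicron transport, lies on the plus strand of chromosome 11 (51763687 to 51791925). It had 156.5, 153.2 and 223.5 FPKM in the KO mice and 175.1, 187.0 and 216.3 FPKM in the WT mice. K79S and K82S were the lowest and K86S the highest, so the WT values lay within the KO range. The means were 177.7 ± 39.7 in KO against 192.8 ± 21.2 FPKM in WT (SD, n = 3), and its log2 difference of -0.13 (limma, SE 0.21, adjusted p = 0.81) turned to 0.05 after rescaling to the same sum. Sar1b was the main Sar1 gene of this tissue, at 10.3 to 29.6 times the FPKM of its close relative Sar1a, although short reads may be split between such relatives.

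Apobec1 lies on the minus strand of chromosome 6 (122577792 to 122602444) and was the least abundant of the 8. It had 15.0, 19.3 and 23.5 FPKM in the KO mice and 20.9, 26.0 and 23.7 FPKM in the WT mice. K79S and K82S lay below every WT library and K86S lay within the WT range. The means were 19.3 ± 4.29 in KO against 23.6 ± 2.56 FPKM in WT (SD, n = 3), with a log2 fold change of -0.30 (limma, SE 0.20, 95% interval -0.77 to 0.18, adjusted p = 0.53) whose sign was kept under all 14 alternatives. Its size was -0.13 without K79S, -0.12 after rescaling to the same sum and -0.44 without K86S.

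Ratios between 2 genes of a library do not depend on how that library was scaled, and 7 of them were compared. Apobec1 stood at 0.0649, 0.0902 and 0.0692 of the Apob level in K79S, K82S and K86S. In W83S, W89S and W90S it stood at 0.094, 0.178 and 0.122. This was the only ratio of the 7 in which the genotypes did not overlap, with all KO libraries below all WT libraries. The margin was narrow, since K82S at 0.0902 and W83S at 0.094 nearly met. The log2 ratio was -3.76 ± 0.25 in KO and -2.98 ± 0.46 in WT (SD, n = 3), a difference of -0.78 or 0.584-fold. By exact permutation, two-sided, p was 0.1, the smallest this design allows, or 0.35 after Benjamini-Hochberg adjustment over the 7 ratios, so the difference did not pass. Leaving out 1 library at a time gave differences from -0.99 without W83S to -0.53 without W89S.

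Of the other ratios, Apob to Apoa1 was 0.57 higher in KO on the log2 scale, Apoc2 to Apoc3 was lower with a difference of -0.52, and Mttp to Apob was lower with -0.38, each with p = 0.2 in the exact permutation test (adjusted p = 0.35) and with overlapping genotypes. Apoa4 to Apoa1 differed by 0.14, Apoc3 to Apoa1 by -0.01 and Sar1b to Sar1a by 0.30 (exact permutation test, p = 0.9, 1.0 and 0.7, adjusted p = 1.0, 1.0 and 0.98). Single libraries decided the size of some of these. Sar1b to Sar1a went from 0.04 without K86S, 0.06 without K79S and 0.11 without W90S to 0.55 without W83S and 0.80 without K82S, and Mttp to Apob from -0.52 without W89S to -0.24 without K82S and -0.19 without W90S. Apoa4 to Apoa1 varied from 0.248 in W89S to 0.774 in K86S, so that neighbouring genes of the chromosome 9 cluster did not keep a fixed proportion.

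**Figure D3:**
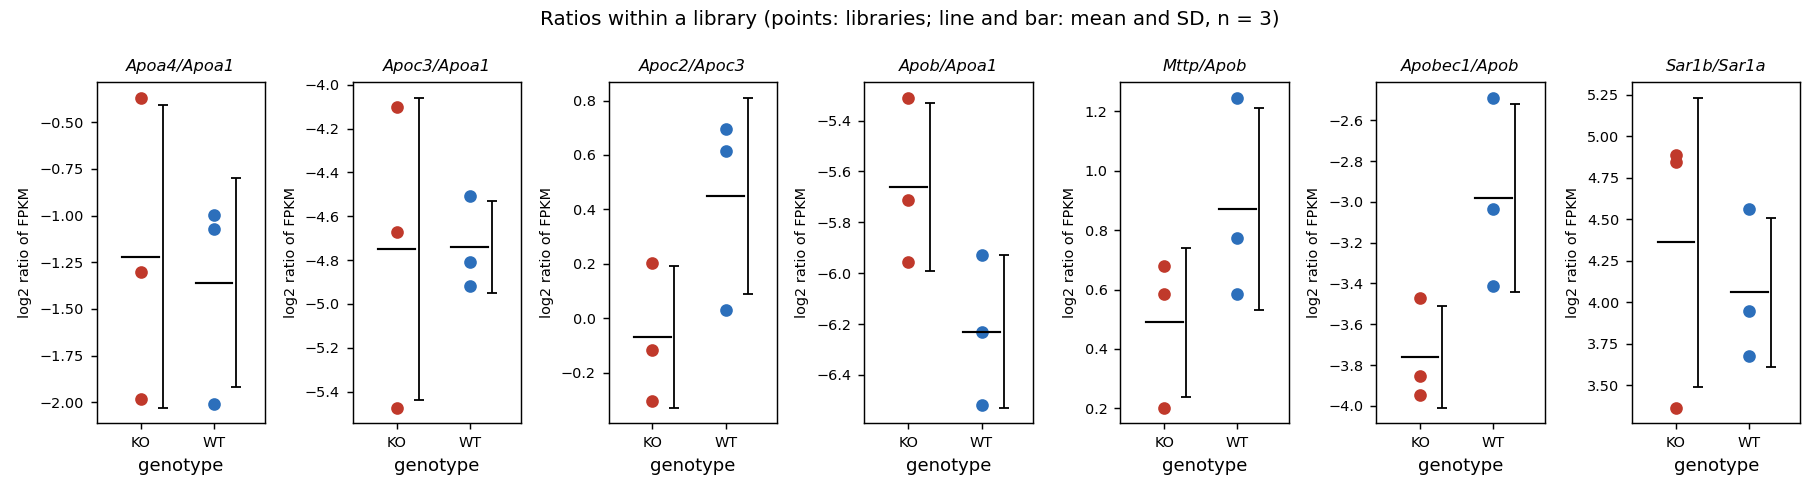
The 7 ratios within a library (vertical axis, log2 ratio of FPKM, own scale in each panel) for the KO libraries (red points) and the WT libraries (blue points), with the mean (line) and SD (bar, n = 3). The genotypes are apart for Apobec1/Apob, where all KO points lie below all WT points, and overlap for the other 6.

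The members' levels were set beside the regional markers. The libraries with the lowest proximal to distal ratio, K82S in KO and W89S in WT, each had the lowest Apoa4, Apoc2, Apoc3, Mttp and Apob of their genotype. Over the 6 libraries the Pearson correlation of log2(FPKM + 1) with the log2 marker ratio was 0.97 for Apoc2 (Spearman's rho 0.89), 0.91 for Apoa4 (rho 0.94), 0.86 for Mttp (rho 0.89), 0.83 for Apoc3 (rho 0.89), 0.74 for Sar1b (rho 0.77) and 0.71 for Apoa1 (rho 0.77). It was 0.42 for Apob (rho 0.26) and 0.31 for Apobec1 (rho 0.31), the genes of the ratio above. The part of the sampled region in the members' levels was not tested beyond the covariate fit given next. These are descriptions over 6 points that share their library, its scaling and its cell makeup. In such bulk tissue, fewer enterocytes of a kind and less RNA per cell cannot be told apart.

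Among the members themselves, Apoa4 and Mttp varied together most closely (Pearson r = 0.96 over 6 libraries), followed by Apoa4 with Apoc3 (r = 0.90). Apobec1 went with Sar1b (r = 0.74) and stood near 0 with Apoa4 (r = 0.07), Apoa1 (r = 0.07) and Mttp (r = -0.03). With the log2 marker ratio as a covariate, a fit chosen after these values had been seen, the log2 fold change was 0.67 for Apob (adjusted p = 0.142), 0.55 for Apoa4 (adjusted p = 0.157) and 0.43 for Mttp (adjusted p = 0.242). These 3 genes then had an unadjusted p under 0.05, as did 19.9% of all rows in that fit against 12.5% without the covariate, and 0 of the 8 passed the thresholds. The estimate of Apoc2 went from -0.63 to -0.23 (adjusted p = 0.503), that of Apoc3 from -0.11 to 0.25 (adjusted p = 0.663) and that of Sar1b from -0.13 to -0.02 (adjusted p = 0.96). Apobec1, at -0.28, and Apoa1, at -0.04, moved by less than 0.1.

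**Figure D4:**
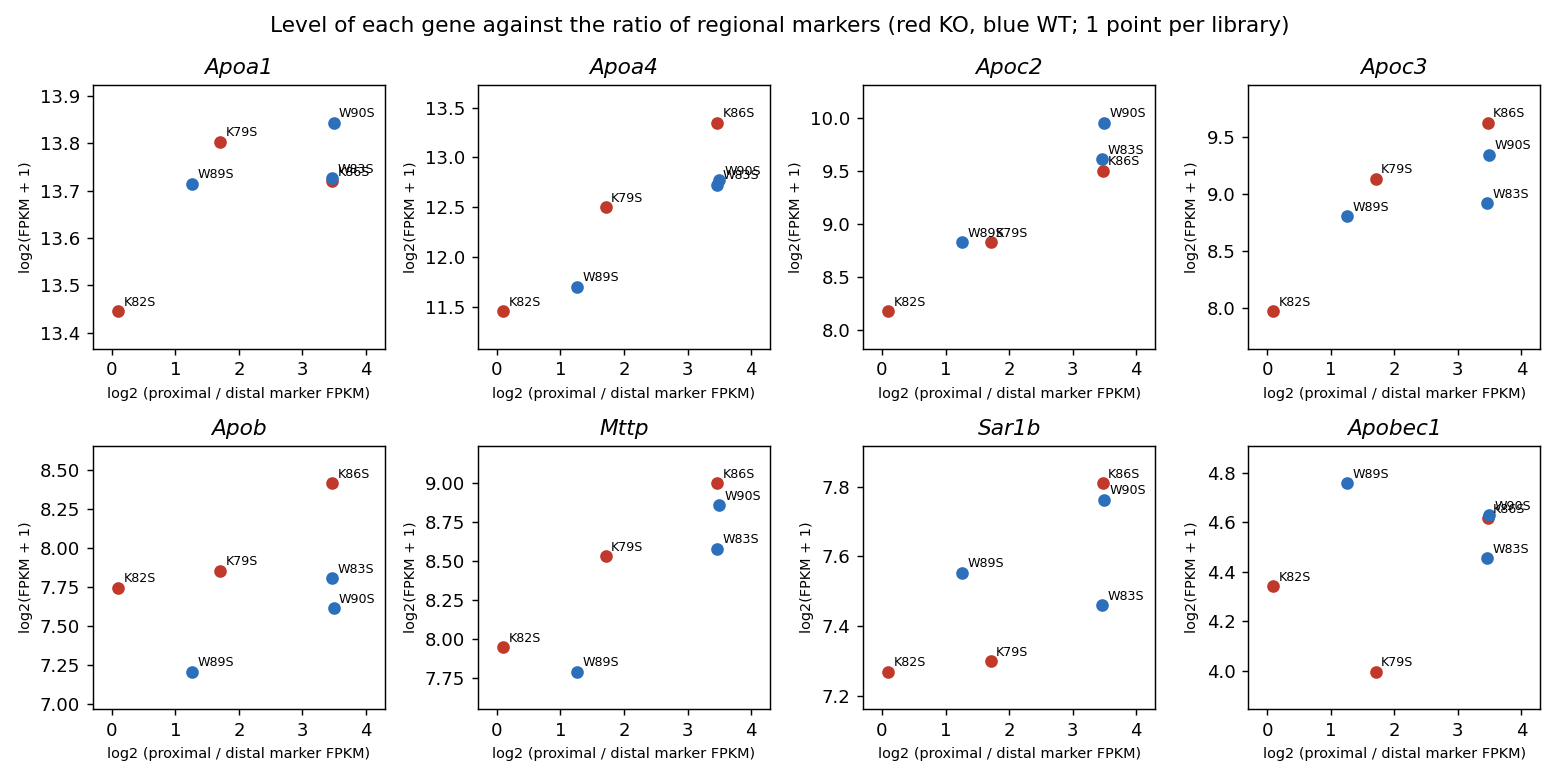
Level of each gene (vertical axis, log2(FPKM + 1), own scale in each panel) against the log2 ratio of summed proximal to summed distal marker FPKM (horizontal axis), with 1 labelled point for each KO (red) and WT (blue) library. K82S, W89S and K79S lie at the left; K82S and W89S have the lowest Apoa4, Apoc3 and Mttp, K79S lies between them and the highest libraries, and Apobec1 shows little relation to the marker ratio (r = 0.31).

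Other pathway genes were examined in 6 lists with 99 genes in all, of which 78 had a restored label and 76 were tested. None passed the thresholds with all libraries or without any 1 library, and 5 (6.58%) had an unadjusted p under 0.05 in limma, beside 12.5% of all rows. Every KO value lay over every WT value in 2 of the 76 and under it in 4, beside 5.9% and 11.3% of all rows. Their median log2 fold change was 0.03, beside -0.06 for all rows.

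Proteins that help to lipidate the particle were represented by 14 of 14 genes, with a median log2 fold change of -0.11. P4hb, protein disulfide isomerase and the small subunit of the transfer protein complex, had 831.6 ± 274.5 in KO against 842.4 ± 247 FPKM in WT (SD, n = 3). It thus stood above its partner Mttp in both genotypes. Prap1, a secreted enterocyte protein that binds lipid and aids transfer by Mttp, had 1724.5, 1821.1 and 2216.6 FPKM in the KO mice and 3301.9, 2213.2 and 3185.2 FPKM in the WT mice. K86S lay just above W89S, so the groups overlapped, and the log2 fold change was -0.58 (limma, SE 0.24, adjusted p = 0.393). Cideb, which helps to enlarge lipoproteins, had 292.6 ± 10.7 in KO against 343.5 ± 50.3 FPKM in WT (adjusted p = 0.615).

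Of the 25 genes of the COPII coat and the transport vesicles, 23 were tested, with log2 fold changes from -0.39 to 0.31 and a median of 0.03. The cargo receptor Surf4 was the most abundant, with 162.7 ± 43.9 in KO against 158.8 ± 35.4 FPKM in WT (SD, n = 3). Tfg, which organises the exit sites, had 106.5 ± 24.6 and 100.2 ± 19.6 FPKM, and Mcfd2, a cargo receptor subunit, 73.6 ± 12 and 75.9 ± 7.26 FPKM. In 1 of the 23, Sec13, a subunit of the outer coat, every KO value lay under every WT value, with 49.1 to 60.4 against 64.9 to 77.5 FPKM (log2 fold change -0.38, adjusted p = 0.394).

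Of the partners of Apobec1, 5 of 8 genes were tested, with a median log2 fold change of -0.19. A1cf, which binds the mooring sequence and recruits Apobec1, had 14.8, 20.3 and 15.5 FPKM in the KO mice and 9.93, 13.3 and 11 FPKM in the WT mice. Every KO value lay over every WT value, with a log2 fold change of 0.52 (limma, SE 0.18, unadjusted p = 0.0246, adjusted p = 0.393), which did not pass. Rbm47, another cofactor of Apob editing, had 48.8 ± 8.48 in KO against 42.1 ± 4.23 FPKM in WT (SD, n = 3). In Hnrnpab, an RNA-binding protein known to bind Apobec1, every KO value lay under every WT value, with 69.4 to 76 against 80.5 to 87.3 FPKM (log2 fold change -0.19, adjusted p = 0.576). Khsrp, a further RNA-binding partner, had 14.3 ± 2.46 and 16.4 ± 1.33 FPKM.

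Of 16 other apolipoprotein genes, 9 were tested, with a median log2 fold change of -0.36. Apoe, which lies near Apoc2 on chromosome 7, had 72.2 ± 12.2 in KO against 61.9 ± 11.8 FPKM in WT (SD, n = 3) and did not share the low estimate of Apoc2. Apoa2, an HDL protein made mainly by the liver, had 2.60, 3.32 and 2.84 FPKM in the KO mice and 5.88, 7.10 and 27.2 FPKM in the WT mice, so that every KO value lay under every WT value (log2 fold change -1.57, adjusted p = 0.393). The 5 hepatocyte markers with a restored label, of 13 on the list, summed to 28 to 55.9 FPKM in KO and to 64.5 to 142.9 FPKM in WT, with none at 0. Cps1 was the largest part of the sum in every library. It had 19.2, 33.5 and 24.9 FPKM in KO and 34.2, 39.4 and 60.2 FPKM in WT. Whether its RNA came from hepatocytes or from enterocytes was not tested. Alb had 1.21 to 4.20 FPKM in KO and 6.26, 13.8 and 51.5 FPKM in W83S, W89S and W90S, and Ahsg was also highest in W90S, with 11.2 FPKM. Ttr was highest in W83S, with 21.8 FPKM, and Serpina1b in W89S, with 20.8 FPKM. In Alb, Ttr, Ahsg and Cps1 every KO value lay under every WT value, as in Apoa2 and in 11.3% of all rows. For Ahsg the margin was narrow, with 1.1 FPKM in K79S and 1.15 FPKM in W83S. Serpina1b overlapped, being higher in K82S (15.0 FPKM) than in W83S (1.07 FPKM) or W90S (6.65 FPKM). Within WT the markers did not share 1 order of the libraries. The part of hepatocytes in the Apoa2 result was not tested.

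Clu, clusterin, had the lowest estimate of the list, -1.88 (limma, SE 1.09, adjusted p = 0.474), with overlapping genotypes. It had 0.663, 14.5 and 1.67 FPKM in the KO mice. In WT it had 56.4 FPKM in W83S, the library with stomach markers, but 4.71 FPKM in W89S and 9.4 FPKM in W90S. Apool and Apol10a, of the same list, also had no overlap between genotypes. Apool, a mitochondrial protein, had 3.38 to 5.10 FPKM in KO and 5.60 to 7.61 FPKM in WT, and Apol10a had 58.9 to 102.8 FPKM in KO and 52.1 to 56.4 FPKM in WT (adjusted p = 0.393 for each). Apol10a and Apol7a, with 36.4 ± 14.2 in KO against 27.6 ± 5.57 FPKM in WT, belong to a family of similar genes among which reads could be split.

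Transcription factors known to act on these genes gave 19 tested genes of 22, with a median log2 fold change of 0.12. Creb3l3, an activator of Apoa4 and Apoc2, had 213 ± 91.3 in KO against 188.9 ± 20.4 FPKM in WT (SD, n = 3). Hnf4a, which drives Apob, Mttp and the chromosome 9 cluster, had 203.1 ± 43.5 and 162.6 ± 46.3 FPKM, and the intestinal factor Cdx2 120.7 ± 37.6 and 102.6 ± 48.8 FPKM. None of the 19 was free of overlap between the genotypes. For lipolysis and clearance, 6 of 14 genes were tested and their median was 0.05. Lsr, a lipoprotein receptor, had 126.5 ± 20 and 115.7 ± 16.6 FPKM, Lrp1, a receptor for remnants, 21.5 ± 5.72 and 16.8 ± 2.31 FPKM, and Angptl4, an inhibitor of lipoprotein lipase, 10.1 ± 1.17 and 11.6 ± 6.81 FPKM.

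**Figure D5:**
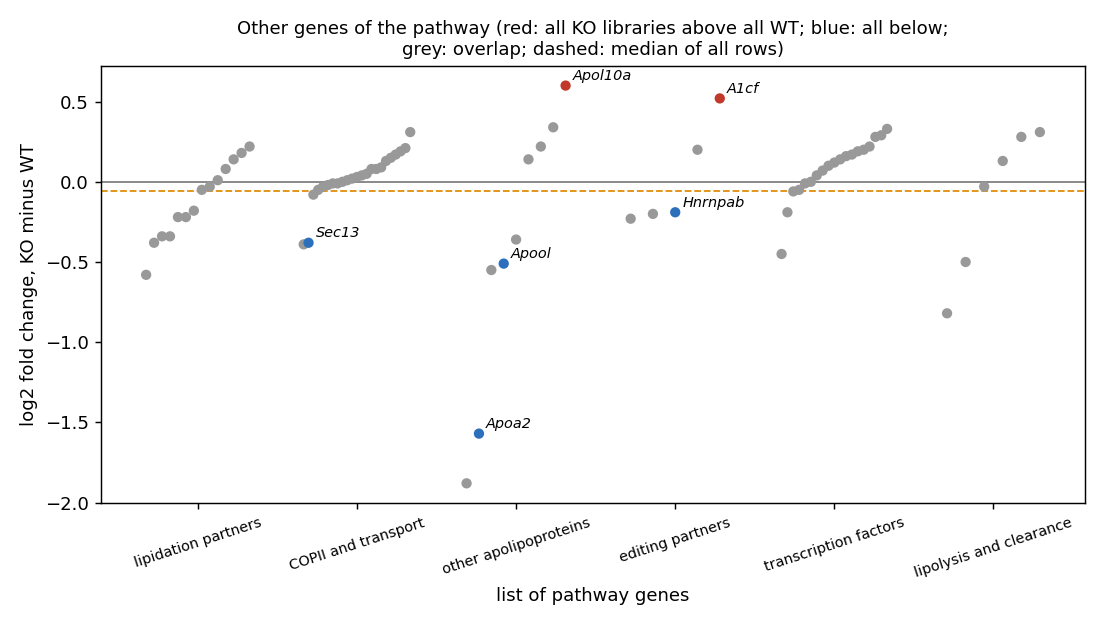
Difference between KO and WT (vertical axis, log2 fold change of FPKM + 1, KO minus WT) for the 76 tested genes of 6 pathway lists (horizontal axis), 1 point per gene, with genes whose libraries do not overlap between genotypes named. Apoa2 is lowest at -1.57 among the named genes, and A1cf (0.52) and Apol10a (0.60) lie above 0 with all KO libraries above all WT libraries.

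The genes most like the 8 members across the 6 libraries were sought by Pearson correlation with their mean log2(FPKM + 1), which was 8.99, 8.55 and 9.50 in K79S, K82S and K86S and 9.16, 8.80 and 9.35 in W83S, W89S and W90S. Among 4528 genes with a mean of at least 10 FPKM, the 5 highest were Adh1 (r = 0.995), an alcohol and retinol dehydrogenase, Agpat1 (0.991), which acylates lysophosphatidic acid in glycerolipid synthesis, Fam213a (0.99), Il10rb (0.99), a chain of the interleukin-10 receptor, and Cox15 (0.987), of haem A synthesis. Adh1 ranged from 61.0 FPKM in K82S to 396.4 FPKM in K86S. The 5 lowest were Ppp1ca (r = -0.993), a phosphatase catalytic subunit, Sqle (-0.992) and Hmgcs1 (-0.991), enzymes of cholesterol synthesis, Sdc1 (-0.989), a heparan sulfate proteoglycan, and Prkab1 (-0.989), a subunit of AMP-activated kinase. Hmgcs1 ran the other way, from 97.1 FPKM in K82S to 16.7 FPKM in K86S, and Sqle from 38.9 to 4.41 FPKM. With 6 libraries and 4528 genes, correlations of this size are a description of the library order and carry no test.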

How the data were processed

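Total RNA of 6 mice was sequenced by the authors as single-end reads, which were trimmed with trim-galore, mapped to mm10 with HISAT2 and quantified with StringTie. The deposited unit is FPKM, scaled by the authors to gene length and mapped fragments, and strand handling is not given in the sources used here. The study lists the reads of each library, which were not used here. The reads behind each value were not derived from FPKM, so the precision rests on 3 mice per genotype. Identifiers in the table stand beside other genes' rows. Identifiers ranked by K79S were joined to rows ranked by W83S with fixed offsets, which gave 12395 labels, down to 0.954 FPKM in W83S, so that genes low in this WT library were not analysed here. As a check, values had at most 6 decimals in 99.7% of 3648 genes with 1 annotated transcript and in 5.8% of 8747 with several (GENCODE M21, GRCm38). There were 0 unmapped columns.

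A row was kept at 1 FPKM or more in at least 2 libraries, and limma 3.58.1 (R 4.3.3) was run on log2(FPKM + 1) of the 13089 rows kept (trend, Benjamini-Hochberg adjustment, no covariate), after a test on simulated data. Log2 fold changes are KO minus WT on the log2(FPKM + 1) scale. Ratios and single genes were tested with exact two-sided permutation tests (scipy 1.17.1, Python 3.11.15). The 8 members, 18 gene lists and tests were chosen with earlier results of these data known. Named were all members, of each pathway list the 3 most abundant genes, any gene past the thresholds, and the 5 genes most and least correlated with the members. Sec13, Apoa2, Apool, Apol10a, A1cf and Clu, and single marker genes, are named also or only because of values seen. Alternatives were other pseudocounts, filters, scalings, array weights, a regional covariate (added after seeing the data) and leaving out each library.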

Additional observations from a re-analysis of the deposited data

How the results depend on the processing

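The count of 0 among the 8 genes and of 0 among the pathway genes was the same under all 14 alternatives each. The count of all rows past the thresholds was 1, and moved to 0 with a pseudocount of 0.1 or of 0.01 and to 2 with array weights, and leaving out 1 library gave 0 to 1184, the highest without K82S. Rescaling every library to the same sum moved the median log2 fold change of all rows from -0.06 to 0.09, and quantile normalization to 0.03. Under these 2 scalings Apoa1 turned to 0.08 and 0.11 and Sar1b to 0.05 and 0.07. Apoc3 turned to 0.07 after rescaling, 0.10 with array weights, 0.25 with the marker ratio as a covariate, 0.36 without K82S and 0.05 without W90S. Without 1 library at a time Apoa4 ranged from -0.42 to 0.52, Apoc3 from -0.47 to 0.36 and Mttp from -0.22 to 0.35. Leaving out K86S or W89S turned Apoa4 to -0.42 or -0.31 and Mttp to -0.17 or -0.22. The causes were not tested. Over the libraries left out, the log2 difference of Apoa4/Apoa1 ranged from -0.28 to 0.52 and that of Apoc3/Apoa1 from -0.33 to 0.36, and the other 5 ratios kept their sign, though not their size, also as ratios of FPKM + 1. No paired analysis was possible because the labels give the 2 genotypes no shared numbers, so the pairs that the study's methods describe cannot be told from them. Of the genes on the lists, 21 of the 99 pathway genes had no restored label, and differences within the intervals given were not detectable with 3 mice per genotype.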

Other observations

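Other cell types of the mucosa gave the following summed marker levels, and each sum overlapped between the genotypes. Single markers did not all overlap. All KO values lay above all WT values in Muc2, Fcgbp, Cd3e, Cd8a and Itgax, and below in Olfm4 and Smoc2. Over all rows these shares were 5.9% and 11.3%. The 7 goblet cell markers summed to 7119 to 13845 FPKM in KO and 7425 to 13700 FPKM in WT, and the 8 Paneth cell markers to 941.5 to 7132 and 2872 to 13688 FPKM. For 7 of 8 enteroendocrine markers the sums were 275 to 318.5 and 277.8 to 541 FPKM. The 541 FPKM was that of W83S, the library with stomach markers. Ghrl had 221.6 FPKM there and at most 11.5 FPKM elsewhere. For 7 of 10 crypt markers the sums were 27.4 to 67.2 and 66.1 to 120.4 FPKM. For 8 of 11 immune markers they were 97.5 to 344.6 and 133.3 to 277.7 FPKM. In W89S, the WT library with the highest immune sum, Lyz2 alone had 183.8 FPKM. For 6 of 9 stroma markers the sums were 17.9 to 39.4 and 14.9 to 36.9 FPKM.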
